A study of Mus musculus with 50 samples.

Results

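A set of 13 left-ventricular RNA-seq libraries, from wild-type mice (WT) under angiotensin II (Ang II), is described here by how strongly each heart expressed Nppa. They are 13 of the 50 libraries of the series and were selected on their labels (WT, Ang II), with 7 females and 6 males. The order of the 13 was chosen by the measured level of Nppa, so the Nppa values are given as a description, with no test. All mice were 40 weeks old, on a C57BL/6J background, and came from litters with a LARP6 transgene; WT mice are the littermates without it. Ang II was infused for 21 days at a dose of 1000 ng/kg/min, while control mice received sterile saline. The groups used beside the 13 are 11 WT saline libraries and 12 libraries of transgenic (Tg) mice under the same Ang II dose, whose transgene adds LARP6, an RNA-binding protein, to cardiomyocytes. The promoter that drives the transgene is not given in the sources used here.

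A 14th library, male replicate 5, is labelled WT Ang II but carries Tg letters in the name of its data column, and its Larp6 level was 1000 scaled FPKM. FPKM counts fragments per length of transcript and depth of the library; a scaled FPKM is the deposited value divided by a factor that sets a typical gene equal between libraries. In the 13 libraries Larp6 lay between 19.6 and 62.5, in WT saline between 5.59 and 63.4, and in the 12 Tg Ang II libraries between 587 and 1183. That library was left out, as was a Tg Ang II male whose column carries WT letters. Xist and Ddx3y levels separated the labelled females of the 13 from the labelled males without overlap.

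Nppa encodes atrial natriuretic peptide, a hormone that makes the kidney excrete salt and relaxes blood vessels. The adult ventricle makes little of it at rest and makes more when its wall is stretched or its cells enlarge, so it is widely used as a gauge of load on the heart. Nppb encodes the related B-type peptide and lies beside Nppa in the genome. Both act on receptor guanylyl cyclases, and a clearance receptor (Npr3) and proteases remove them. Ang II raises blood pressure and also acts on heart cells and fibroblasts directly, and scar-like matrix between muscle cells is a known result of a long infusion.

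Nppa (ENSMUSG00000041616, chromosome 4, 148000722 to 148002079, plus strand, as the deposited table gives it with no build named) differed 5.91-fold between the highest and the lowest of the 13 hearts. In rising order the levels were 193, 245, 276, 298, 324, 331, 459, 498, 507, 554, 555, 673 and 1143 scaled FPKM. The coefficient of variation was 53.5% (n = 13). The lowest heart, male replicate 3, fell inside the WT saline range of 89.7 to 201 (median 117, n = 11), and the other 12 lay above it. Female replicate 7, at 1143, stood apart from the next library, male replicate 4 at 672.9. It was the 1 library inside the Tg Ang II range of 673.4 to 2935 (median 1599, n = 12), with male replicate 4 just under the lower end of that range. Females averaged 508 ± 307 (SD, n = 7) and males 417 ± 174 (SD, n = 6), and the ranges of the sexes overlap. The plot of Nppa by library shows the 13 values between those of the other groups.

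**Figure D1:**
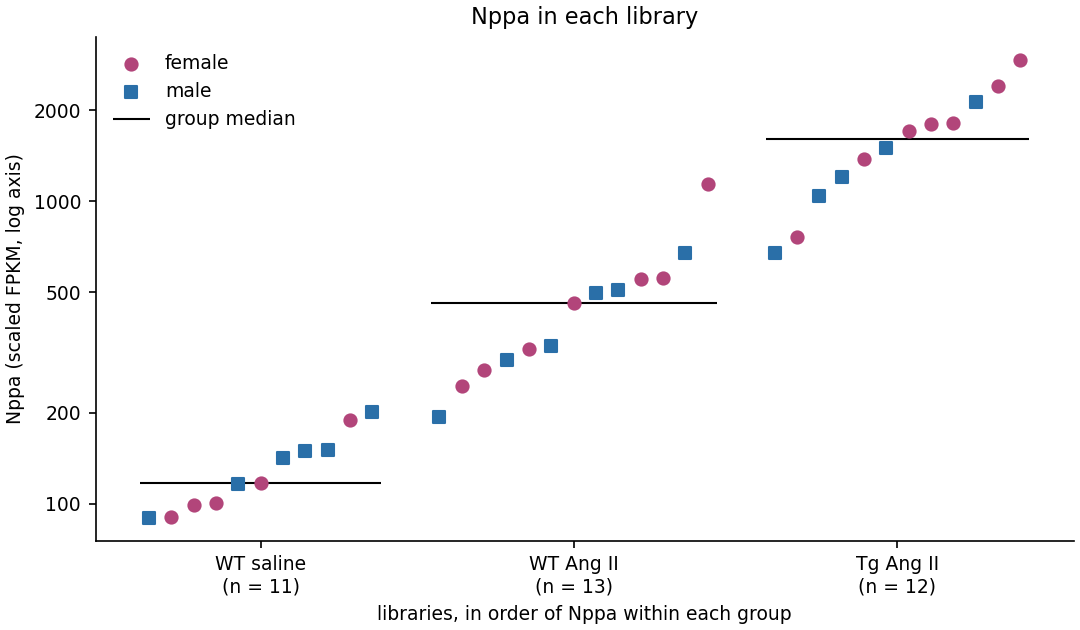
Nppa in each library (scaled FPKM, log axis) of WT saline (n = 11), WT Ang II (n = 13) and Tg Ang II (n = 12), ordered by level within each group, with circles for females, squares for males and a line at the group median. The 13 WT Ang II libraries run from 193 to 1143, and 12 of them lie above the highest WT saline library at 201.

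Total counts of the 13 libraries ran from 58908692 to 89115441 and did not follow Nppa (Spearman rho 0.11, exact permutation p = 0.723, n = 13). The share of counts from mitochondrial genome genes, 30.1% to 38.8%, did fall as Nppa rose (rho −0.73, exact permutation p = 0.0061, adjusted over 5 such measures 0.0305). Pearson's r for that share was −0.59 (permutation p = 0.0345, adjusted 0.122), and −0.75 without the lowest and the highest Nppa library. Within females rho was −0.57 and within males −0.83. The share of counts on the 5 most abundant genes fell too (rho −0.66, exact permutation p = 0.0158, adjusted 0.0395). The number of genes with an FPKM of at least 1 went up with Nppa (rho 0.56, exact permutation p = 0.0499, adjusted 0.0623). So did the factor used for scaling (rho 0.57, exact permutation p = 0.0449, adjusted 0.0623). The library numbers are also uneven along the order. The 4 libraries whose number starts with 1 hold ranks between 7 and 11, and the 5 whose number starts with 7 hold ranks 2 to 5 and 13. The labels do not say what the number stands for, so values with the first digit of the library number as a further term are given for some of the genes and lists. The ventricular label was met by Myl2, the ventricular myosin light chain, at 1747 to 2660 scaled FPKM, while the atrial genes Sln (0 to 0.05), Bmp10 (0 to 0.0244), Myl7 (0 to 0.415) and Myl4 (0.168 to 0.542) were at or near 0. Not all atrial markers were so low. Of 6 listed, 2 were expressed enough to be tested below, where 1 was called as rising with Nppa (median slope 0.22). The summed level of the 6 was 4.671 to 7.335, against 4.981 to 6.766 in WT saline. In such bulk tissue, fewer cells of a type and less RNA per cell cannot be told apart. Nothing in the labels says more about the source of the libraries than 1 number each, so the p-values measure the spread between these libraries, part of which may be technical.

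Start-site windows from RefSeq (GRCm38.p6; 250 bases before to 50 after the annotated start, 5′ to 3′ on the gene's strand) are shown for 5 genes that the results turn on. Nppa sets the order, Nppb is its neighbour, Ankrd1 followed Nppa, Acta1 did not, and Thbs4 was the matrix gene with the largest slope among those with a mean of at least 5. Capitals mark, on either strand, the MCAT motif CATTCC bound by TEAD factors, GATAA bound by GATA factors, TATAAA, and the CArG box bound by SRF.
Nppa, chr4:148000472-148000771: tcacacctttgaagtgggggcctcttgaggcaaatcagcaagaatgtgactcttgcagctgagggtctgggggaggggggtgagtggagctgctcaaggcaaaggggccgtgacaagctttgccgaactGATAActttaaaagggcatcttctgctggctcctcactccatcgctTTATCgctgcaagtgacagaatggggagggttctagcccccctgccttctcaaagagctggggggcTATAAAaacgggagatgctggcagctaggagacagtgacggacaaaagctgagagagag
Nppb, chr4:147985650-147985949: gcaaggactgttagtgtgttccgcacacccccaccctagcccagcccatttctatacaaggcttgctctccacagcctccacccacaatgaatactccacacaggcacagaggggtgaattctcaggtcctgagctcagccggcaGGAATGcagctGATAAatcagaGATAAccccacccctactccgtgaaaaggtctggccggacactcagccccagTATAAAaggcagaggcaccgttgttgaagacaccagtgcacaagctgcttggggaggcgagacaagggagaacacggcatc
Ankrd1, chr19:36119795-36120094, minus strand: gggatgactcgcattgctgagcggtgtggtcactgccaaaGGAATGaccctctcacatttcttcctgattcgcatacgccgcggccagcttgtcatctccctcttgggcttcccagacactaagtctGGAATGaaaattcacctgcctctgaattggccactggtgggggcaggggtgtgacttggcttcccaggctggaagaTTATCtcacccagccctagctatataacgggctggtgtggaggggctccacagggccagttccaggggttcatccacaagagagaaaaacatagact
Acta1, chr8:123894726-123895025, minus strand: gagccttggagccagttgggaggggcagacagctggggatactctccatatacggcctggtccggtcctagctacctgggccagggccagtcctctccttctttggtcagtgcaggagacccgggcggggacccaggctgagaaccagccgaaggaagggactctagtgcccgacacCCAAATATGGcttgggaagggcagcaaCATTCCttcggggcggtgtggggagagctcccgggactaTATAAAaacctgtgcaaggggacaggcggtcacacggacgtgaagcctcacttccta
Thbs4, chr13:92794769-92795068, minus strand: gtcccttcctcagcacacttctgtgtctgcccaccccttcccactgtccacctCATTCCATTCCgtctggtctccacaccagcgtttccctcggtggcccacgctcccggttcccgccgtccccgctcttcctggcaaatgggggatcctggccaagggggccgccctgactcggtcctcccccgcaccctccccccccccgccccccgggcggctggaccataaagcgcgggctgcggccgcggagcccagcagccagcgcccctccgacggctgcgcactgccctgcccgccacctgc

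CATTCC stands once in the Nppb and Acta1 windows and 2 times each in those of Ankrd1 and Thbs4 (there overlapping by 1 base), and none was found in that of Nppa. Of all 32544 such windows 14.6% hold it, of the 10107 windows of genes tested below 12.2%, of the 126 of genes that rose with Nppa 14.3% and of the 70 of genes that fell 8.57%. GATAA stands 2 times each in the Nppa and Nppb windows and once in that of Ankrd1, against 25.3% of all windows, 15.8% of those of genes tested and 14.3% each of those of rising and falling genes. The CArG box was found in the Acta1 window among the 5, and in 1.64% of all windows and 1.37% of those of genes tested. TATAAA stands in the windows of Nppa, Nppb and Acta1 and in 13.6% of all and 7.39% of those of genes tested. A match describes letters and shows no binding.

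Each of 10752 genes (FPKM of at least 1 in 5 or more of the 13 libraries, Nppa aside) was compared with the Nppa order in 2 ways. Spearman correlation with the rank of Nppa, with an exact permutation p over all orders and Benjamini-Hochberg adjustment over the 10752 genes, called 0 genes at an adjusted p under 0.05 (0% of those tested). At an unadjusted p under 0.05 it gave 811 genes with a positive rho (7.54%) and 736 with a negative one (6.85%). At any p, 50.1% of the genes tested had a positive rho. The smallest adjusted p was 0.0605, for Ogfrl1 (rho 0.95), a gene singled out after its value was seen. A quasi-likelihood fit of the counts on log2 Nppa in edgeR, with sex as a covariate, uses the size of each step as well as the order. It gives a slope, the log2 change in count for each doubling of Nppa. That fit called 226 genes (2.1% of 10752), of which 152 rose with Nppa (1.41%) and 74 fell (0.688%), and 2048 genes had an unadjusted p under 0.05. Below, "rose" and "fell" refer to genes that this fit called, and every adjusted p beside a slope is from it.

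The number of calls depends on which hearts are in the fit. Without female replicate 7, the library at 1143, 5 genes were called (2 rising, Comp and Thbs4, and 3 falling, mt-Tn, mt-Ta and Fnip1). All 226 genes kept the sign of their slope without it, 222 of them had an unadjusted p under 0.05, and their median absolute slope was 0.32 against 0.33 with all 13. The call count also moved by over 1.5 times without male replicate 3, the lowest library (59 genes), and without female replicates 2 (145), 3 (391), 4 (131), 5 (90) or 6 (81) or male replicates 6 (136) or 7 (117). With the first digit of the library number as a further term 130 genes were called, 103 of them among the 226. All 226 then kept their sign, each at an unadjusted p under 0.05, with a median absolute slope of 0.33. Ranked within the first digit of the library number, the Spearman test called 0 genes. It had 292 of 10752 at an unadjusted p under 0.05, against 1547 when the digit was not used. Female replicate 7 stayed in the fit with the digit term, and no fit used that term without this library. All 226 slopes had the sign of rho in females alone and in males alone. The 226 were picked in these same libraries, so the kept signs and unadjusted p-values in this paragraph are largely set by that choice. The matching shares over all genes were not computed. Genes that rose were shorter (median length 2724 bases, against 4315 for all tested) and genes that fell were longer (6276). Over all 10752 genes, the rho with Nppa was lower for longer genes (Spearman −0.29 across genes, given as a description). Whether length, the mitochondrial share or the scaling factor has a part in these slopes was not tested.

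Nppb did not pass the threshold, although it was higher in hearts with more Nppa. In the order of Nppa, its levels were 81.0, 52.9, 99.0, 114, 88.0, 49.6, 342, 205, 207, 88.9, 145, 241 and 228 scaled FPKM. The highest Nppb thus belongs to female replicate 3, only the 7th heart by Nppa, and female replicate 2, the 10th by Nppa, sits within the WT saline range of 42.3 to 126. Only 6 of the 13 hearts exceed that range. Its slope was 0.89 ± 0.27 (SE, adjusted p = 0.0959), with rho 0.66 (exact permutation p = 0.0169) and r 0.68 (permutation p = 0.0103), and rho 0.55 without the highest and lowest Nppa library. Of the 7 tested genes of peptide processing, clearance and signalling, 1 rose and 0 fell, and the median slope was −0.07. The gene that rose was Npr3, the clearance receptor, at 0.911 to 2.13 scaled FPKM (slope 0.38 ± 0.07, adjusted p = 0.0143), and all 13 libraries lay at or below the highest WT saline library. The rho of Npr3 was 0.49. By rank, 0 genes of the list had a positive rho at an unadjusted p under 0.05 and 1 had a negative one. Corin, the protease that activates the Nppa product, had a slope of −0.17 ± 0.07 (adjusted p = 0.221). Npr1, the main receptor, had one of −0.05 ± 0.05 (adjusted p = 0.606). Gm13054, an antisense transcript that overlaps Nppa, rose too (slope 0.98, adjusted p = 0.0211), but whether counting used strand is not stated, so its reads and those of Nppa cannot be told apart.

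Among 13 load markers, genes that the strained ventricle is known to raise, 4 rose and 0 fell, with a median slope of 0.54 (0.35 without female replicate 7) against 0.00 over all genes tested. Ankrd1, a stretch-responsive protein of the sarcomere and nucleus, read 301, 367, 367, 557, 391, 334, 585, 594, 793, 449, 520, 529 and 1046 scaled FPKM in the order of Nppa. Only 2 of these exceed the highest WT saline library (615), so most of this gradient lies within the range of untreated hearts. Its slope was 0.64 ± 0.11 (adjusted p = 0.0129), and 0.69 ± 0.06 (adjusted p = 0.0015) with the first digit of the library number as a term. Uchl1, a deubiquitinase, was at 2.81 to 7.55 scaled FPKM in 12 hearts and at 14.01 in female replicate 7 (slope 0.77 ± 0.09, adjusted p = 0.0022). Sprr1a, named after its values were seen, completed the 4 (slope 1.02 ± 0.21, adjusted p = 0.0293).

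Myh7, the slow β-myosin heavy chain, rose by the test (slope 0.56 ± 0.13, adjusted p = 0.0468), but the call depends on 1 heart. Its levels were 154, 196, 144, 230, 202, 203, 124, 249, 215, 185, 218, 232 and 552 scaled FPKM. The other 12 hearts lie between 124 and 249, and female replicate 7 is at 552. Without it the slope was 0.20 (adjusted p = 0.46). The calls of Ankrd1, Uchl1 and Sprr1a were lost without this heart too, as were those of Fmod, Ltbp2, Cilp, Postn, Ccn2 and Scn4b described below. With the first digit of the library number as a term, in a fit that kept this heart, the slope of Myh7 was 0.68 ± 0.10 (adjusted p = 0.0126).

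Acta1, skeletal α-actin and a standard stress gene of the ventricle, showed no order along Nppa. It read 375, 289, 187, 374, 196, 230, 649, 196, 954, 404, 325, 285 and 277 scaled FPKM, with its peak in male replicate 1, the 9th heart, and the heart with most Nppa at 277. The slope was 0.24 ± 0.30 (adjusted p = 0.699) and rho 0.09 (exact permutation p = 0.765). The slope of Acta1 was −0.03 with the first digit of the library number as a term and −0.0003909 without male replicate 1. Of the 13 hearts 9 exceeded the highest WT saline library (272). Rcan1, a calcineurin target, had a slope of 0.63 ± 0.20 (adjusted p = 0.117). Ventricular sarcomere and identity genes gave 0 calls among 16 (median slope 0.03), Myh6, the fast α-chain, among them at −0.10 ± 0.06 (adjusted p = 0.382). The scatter plots draw 8 genes against Nppa, where Acta1 has no trend and Thbs4 a steep one.

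**Figure D2:**
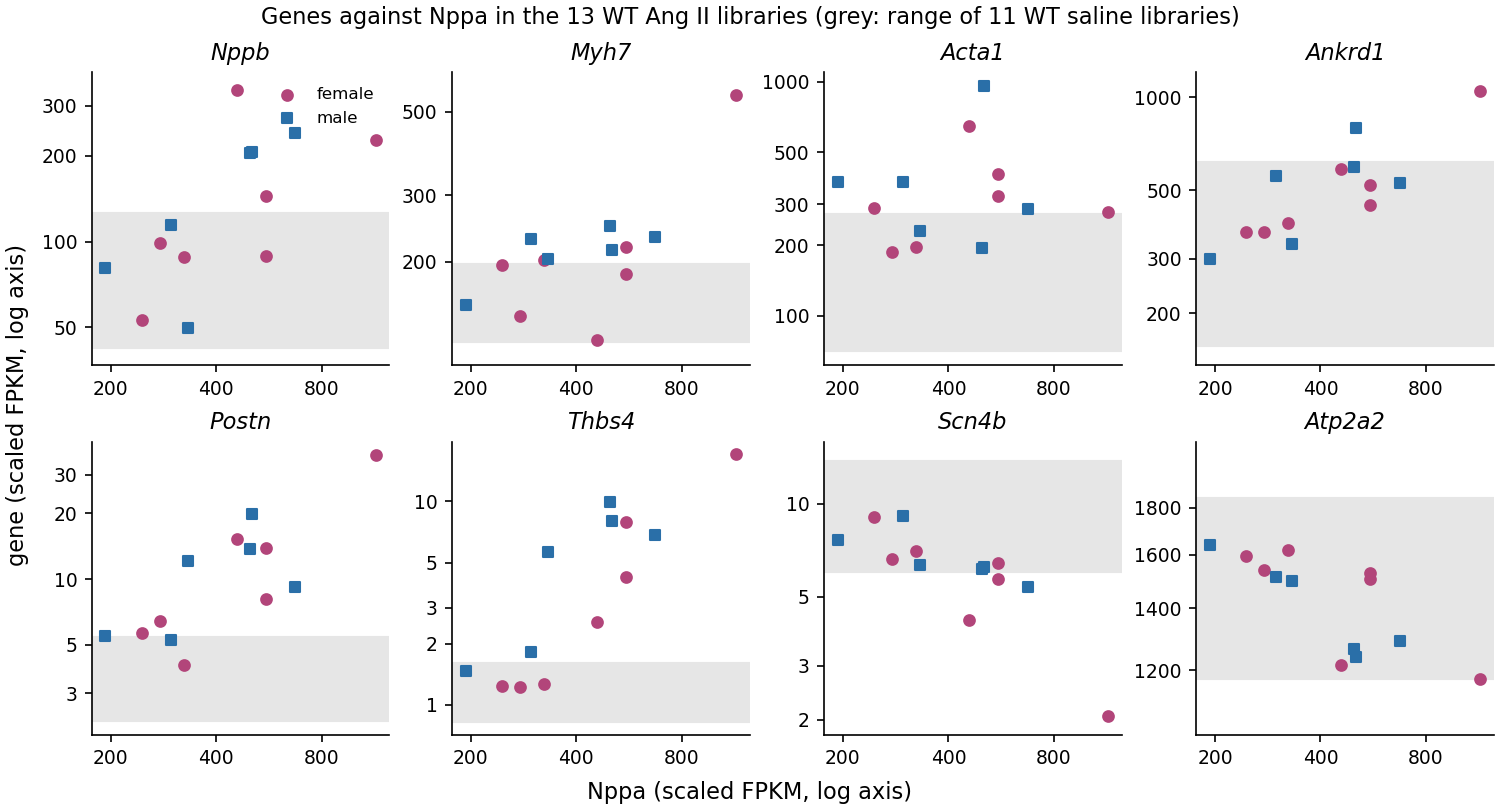
Scaled FPKM of 8 genes (vertical, log axes) against Nppa (horizontal, log axis) in the 13 WT Ang II libraries, circles for females and squares for males, with the range of the 11 WT saline libraries in grey. Thbs4 climbs from inside the grey band to 17.0 in the library with most Nppa, Scn4b drops to 2.06 there, and Acta1 peaks at 954 in a heart of middle Nppa.

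The 3 genes named here with the largest slopes, Fmod, Comp and Thbs4, encode matrix proteins. Fmod and Comp lay below 1 scaled FPKM in the hearts with least Nppa. Both thus passed the filter on level only through hearts with more Nppa, where they are high, and their slopes should be read with that limit. Of 34 tested matrix genes other than collagens, 11 rose and 0 fell (median slope 0.35). A positive rho at an unadjusted p under 0.05 was found for 18, against 7.54% of all genes. Of 7 tested myofibroblast markers, 6 rose and 0 fell (median slope 1.11, and 0.94 without female replicate 7). With the first digit of the library number as a term the medians were 0.34 for these matrix genes and 1.085 for the myofibroblast markers. Those lists share Postn, Cilp, Comp and Thbs4, so the counts overlap.

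Fmod encodes fibromodulin, a small proteoglycan that binds collagen fibrils. In the order of Nppa it read 0.192, 0.334, 0.475, 0.642, 0.700, 2.54, 0.743, 5.08, 2.60, 2.15, 5.03, 2.65 and 7.53 scaled FPKM. The 4 lowest hearts lay at or below the highest WT saline library (0.643), while the heart with most Nppa was 39.1-fold above the heart with least. That fold rests on a level of 0.192, below the 1 FPKM used for the filter. Its slope was 2.17 ± 0.34, a 4.5-fold change per doubling of Nppa (adjusted p = 0.0071). The rank correlation was 0.91 (exact permutation p = 5.5e-05, adjusted 0.112), r was 0.86, and r without the 2 libraries farthest in Nppa was 0.76. In females alone rho was 1 and in males 0.83.

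Comp encodes cartilage oligomeric matrix protein, of the thrombospondin family. Its levels were 0.487, 0.516, 0.710, 0.969, 0.601, 1.87, 1.85, 3.62, 3.05, 1.76, 4.04, 3.31 and 8.85. The 5 hearts with least Nppa lay below the highest WT saline library (1.42) and the other 8 above it. The slope was 1.84 ± 0.16 (adjusted p = 2.0e-04), the smallest p of all 10752 genes, and 1.89 ± 0.23 (adjusted p = 0.0168) without female replicate 7.

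Thbs4, thrombospondin 4, a matrix protein that muscle and fibroblasts make under strain, read 1.47, 1.24, 1.22, 1.82, 1.26, 5.64, 2.56, 9.88, 7.97, 4.25, 7.89, 6.84 and 17.0. The 5 hearts with least Nppa stayed at or under 1.82, near the WT saline range of 0.821 to 1.61, and the other 8 were at 2.56 or more. The slope was 1.77 ± 0.20 (adjusted p = 0.0017), 1.78 ± 0.28 without female replicate 7 (adjusted p = 0.0485) and 1.73 ± 0.19 with the first digit of the library number as a term (adjusted p = 0.0043). The rank correlation was 0.83, at 0.96 in females and 0.77 in males. Ltbp2, a protein of elastic microfibrils related to the latent TGF-beta binders, rose from 0.366 to 5.79 across the 13 hearts (slope 1.59 ± 0.19, adjusted p = 0.0026). It was 1.29 per doubling without female replicate 7. Cilp, a matrix protein of fibroblasts, ran from 2.74 to 29.0, and all 13 hearts exceeded the highest WT saline library of 2.62 (slope 1.37 ± 0.26, adjusted p = 0.0179).

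Postn, periostin, the usual mark of activated fibroblasts, read 5.48, 5.67, 6.42, 5.26, 4.02, 12.2, 15.2, 13.8, 19.9, 8.11, 13.9, 9.19 and 36.9 scaled FPKM. In all, 11 hearts were above the WT saline range of 2.23 to 5.42, and the steps were uneven, with male replicate 4, second in Nppa, at only 9.19. The slope was 1.11 ± 0.20 (adjusted p = 0.0137) and 0.94 without female replicate 7. Ranked within the first digit of the library number its rho was −0.125, against 0.71 over all 13. Ccn2, the connective tissue growth factor, rose from 15.4 at the lowest to 51.3 in female replicate 7 (slope 0.64 ± 0.12, adjusted p = 0.0152), and its relative Ccn5 had a slope of 1.23 ± 0.18 (adjusted p = 0.0055). Both are in a list of 9 CCN, YAP and TEAD genes, of which these 2 rose, 0 fell and the median slope was 0.03. Lox, a collagen cross-linking enzyme named after its values were seen, had a slope of 1.01 (adjusted p = 0.0465). The other matrix genes that rose were Aspn (slope 0.54, adjusted p = 0.0293) and, named after their values were seen, Mfap4 (1.01), Mfap5 (0.71), Eln (0.66), Timp1 (0.92) and Timp2 (0.24).

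Of 17 collagens tested 3 rose, 0 fell, all 17 had a positive rho (50.1% over all genes tested), and the median slope was 0.31. Col1a2 (slope 0.56 ± 0.13, adjusted p = 0.0466) and Col5a2 (0.62 ± 0.14, adjusted p = 0.0461) rose, as did Col14a1 (0.57, adjusted p = 0.0346), named after its values were seen. Col1a1 and Col3a1, the chains that make most scar collagen, had slopes of 0.62 ± 0.17 (adjusted p = 0.0749) and 0.74 ± 0.22 (adjusted p = 0.0892) and did not pass. In the order of Nppa, Col1a1 read 11.2, 8.604, 10.02, 7.96, 7.34, 16.7, 14.7, 16.8, 23.0, 12.9, 18.7, 8.94 and 28.0 scaled FPKM. Male replicate 4, second in Nppa, had 8.94, inside the WT saline range of 5.19 to 9.54. For the collagens the median rho was 0.75 in females and 0.26 in males, a difference between sexes that was not tested. Collagen processing genes gave 2 rises among 18, Lox and Loxl3 (slope 0.63, adjusted p = 0.0152), and a median slope of 0.12.

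TGF-beta genes, whose ligands drive fibroblast activation, gave 3 rises and 0 falls among 16 (median slope 0.08). Besides Ltbp2 they were the ligands Tgfb3, at 4.36 to 9.69 scaled FPKM (slope 0.43 ± 0.09, adjusted p = 0.0276), and Tgfb2 (0.45 ± 0.09, adjusted p = 0.0298). Resident fibroblast markers gave 1 rise among 12, Pi16 (slope 0.42 ± 0.09, adjusted p = 0.0431), with a median of 0.09. The median was 0.25 without female replicate 7 and 0.02 with the first digit of the library number as a term. The summed level of the resident fibroblast markers ran from 264 to 420 scaled FPKM in the 13 hearts, against 349 to 440 in WT saline. For the 10 listed myofibroblast markers the sum was 52.5 to 189 (WT saline 45.3 to 82.1). The slopes with and without female replicate 7 are set beside those of Tg hearts in the slope plot.

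**Figure D3:**
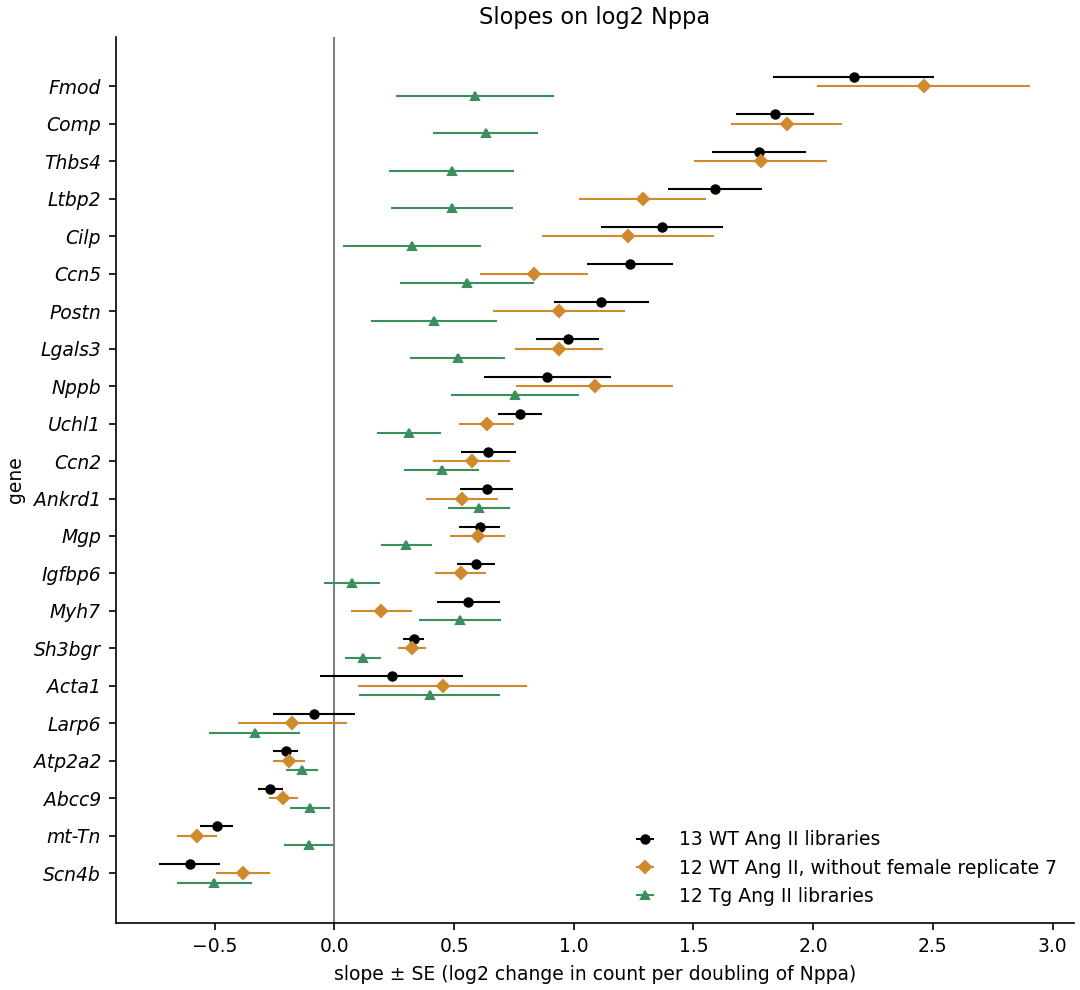
Slope ± SE (log2 change in count per doubling of Nppa) of 22 genes in the 13 WT Ang II libraries (circles), in 12 of them without female replicate 7 (diamonds) and in 12 Tg Ang II libraries (triangles). Fmod, Comp and Thbs4 have the largest slopes in WT, at 2.17, 1.84 and 1.77, while Myh7 drops from 0.56 to 0.20 without 1 library.

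Few markers of other cell types were called. Of 13 tested macrophage markers 1 rose, Lgals3 (galectin 3), from 0.730 to 4.25 scaled FPKM (slope 0.97 ± 0.13, adjusted p = 0.0041). The median slope was 0.25, with 0.44 without female replicate 7 and 0.15 with the first digit of the library number as a term. The complement genes C1qa, C1qb and C1qc had slopes of 0.40, 0.37 and 0.35 (adjusted p = 0.14, 0.118 and 0.207). The summed macrophage level was 91.7 to 245 in the 13 hearts and 110 to 142 in WT saline. Endothelial markers gave 0 calls among 15 and a median slope of −0.14 (0.00 without female replicate 7), with Kdr, the main VEGF receptor, at −0.28 ± 0.10 (adjusted p = 0.145). Their sum was 335 to 554 (WT saline 323 to 530). Of 9 mural markers 1 fell, Abcc9, a subunit of potassium channels in both pericytes and cardiomyocytes (slope −0.27 ± 0.05, adjusted p = 0.0205), and the sum ran from 140.0 to 227 (WT saline 187 to 237). MHC class II (5 genes) and interferon-stimulated genes (15) gave 0 calls, with medians of 0.18 and 0.14, and of 0.51 and 0.25 without female replicate 7. With the first digit of the library number as a term these medians were 0.03 and 0.07. Lymphocyte and neutrophil, proliferation, fat, skeletal muscle, mesothelial and nerve markers had no tested member, and their sums were at most 20.1 scaled FPKM in the 13. Haemoglobin genes, a mark of blood in the sample, ran from 192 to 1999 in sum and gave 0 calls among 5 (median slope 0.13, and 0.38 without female replicate 7). How far cell makeup contributes to the slopes was not tested.

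The highest rank correlations among genes with a mean of at least 5 scaled FPKM were mostly small, even steps rather than large ones. They were Serf2 (rho 0.92), Sh3bgr (0.90), Mgp (0.89), C3 (0.88), Uchl1, Atpif1 and Sdf4 (each 0.87), Cops5 (0.87), Eid1 (0.86) and Eef1a1 (0.86). Exact p ran from 2.4e-05 to 0.000361 and adjusted p was 0.112 or higher, so none passed in the rank test, while 9 of the 10 passed in the slope test and Sdf4 did not (adjusted p = 0.145). Sh3bgr, a muscle protein, read 73.5, 79.0, 88.5, 78.3, 75.2, 90.5, 100.5, 100.4, 107, 95.0, 104, 108 and 131, and all 13 hearts exceeded the highest WT saline library of 71.9. Its slope was 0.33 ± 0.04 (adjusted p = 0.0041) and it differed 1.78-fold between the highest and lowest heart. Mgp, matrix Gla protein, an inhibitor of calcification, ran from 25.9 to 90.4 (slope 0.61 ± 0.08, adjusted p = 0.0044). C3, the central complement protein, ran the other way against treatment. It rose along Nppa from 16.8 to 29.9 (slope 0.29 ± 0.05, adjusted p = 0.0129), yet 9 of the 13 hearts lay below the lowest WT saline library of 23.9. Serf2, of small size and little known in the heart, rose by 14.3% per doubling of Nppa, from 25.5 to 36.3. Atpif1, the inhibitor of mitochondrial ATP synthase, and Eef1a1, a translation factor, had slopes of 0.36 and 0.23. The heat map shows these genes with the libraries ordered by Nppa.

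**Figure D4:**
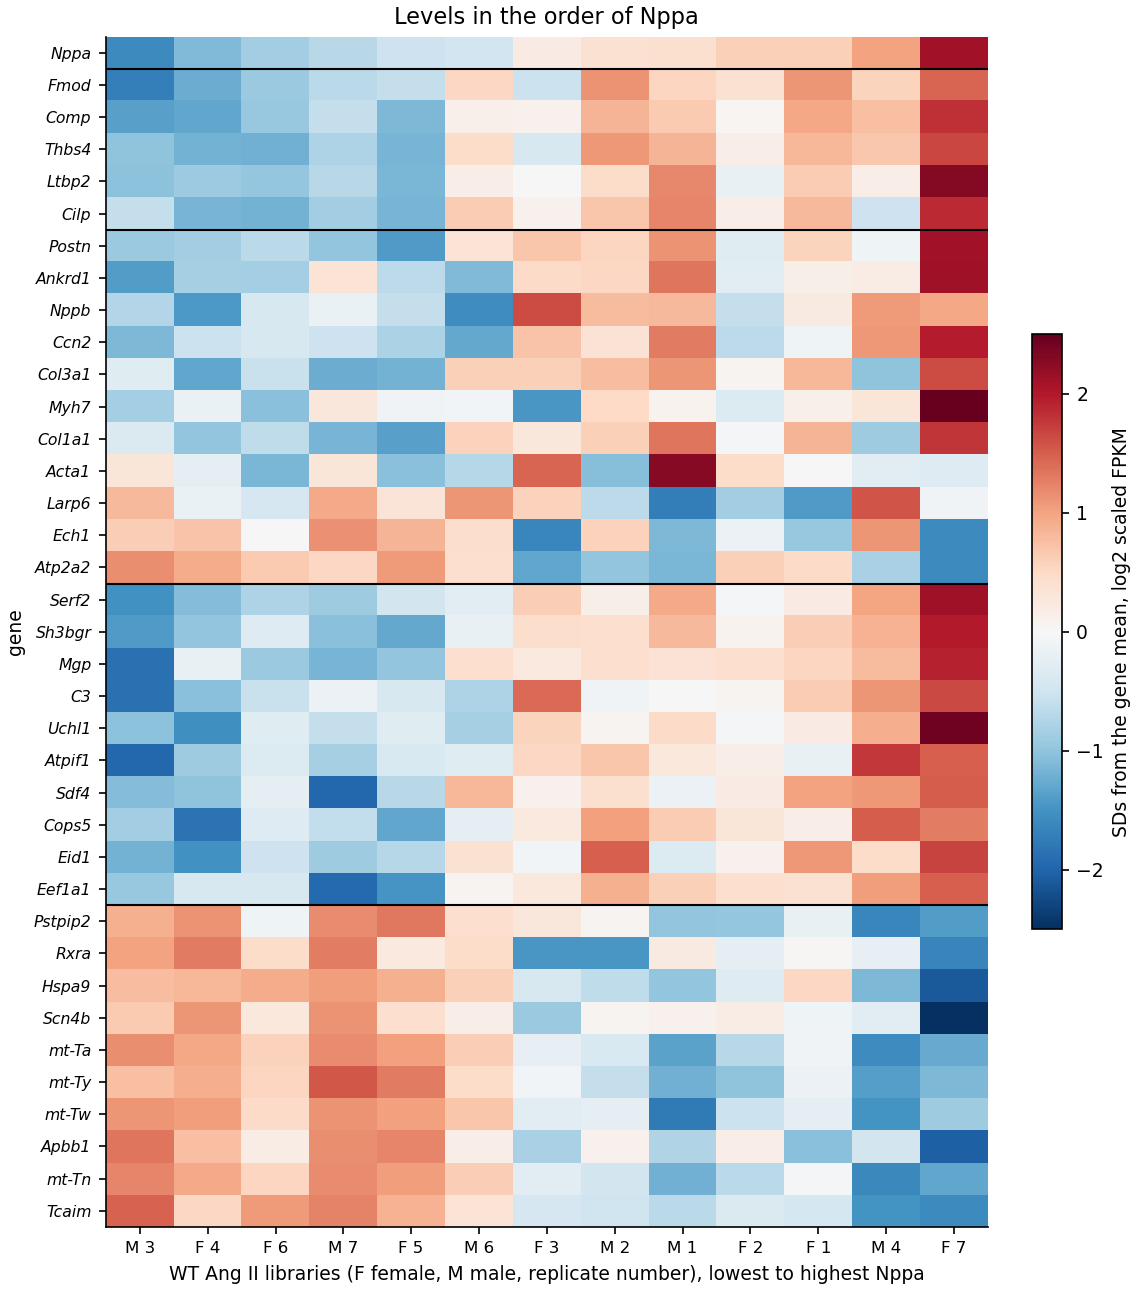
Levels of 37 genes (rows) in the 13 WT Ang II libraries (columns, from the lowest to the highest Nppa; F female, M male, replicate number), as SDs from the gene's mean of log2 scaled FPKM. From the top, the blocks are Nppa, 5 matrix genes, 11 genes of a chosen panel, the 10 genes with the highest rho and the 10 with the lowest; within the panel Acta1 and Larp6 have rho 0.09 and −0.23.

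Among genes with a mean of at least 5 scaled FPKM, the lowest rank correlations were those of Tcaim (rho −0.90), the mitochondrial tRNA genes mt-Tn (−0.87), mt-Ty and mt-Tw (each −0.85) and mt-Ta (−0.84), Apbb1 (−0.85), Scn4b (−0.82), Rxra and Hspa9 (each −0.82) and Pstpip2 (−0.81). Of these, Rxra (adjusted p = 0.0935) and Hspa9 (adjusted p = 0.195) did not pass in the slope test and the others did. Tcaim, a mitochondrial protein, fell from 8.54 in the heart with least Nppa to 5.82 in the heart with most (slope −0.25 ± 0.04, adjusted p = 0.006). The 4 tRNA genes fell with slopes of −0.37 to −0.49 (adjusted p = 0.0044 to 0.0204), and mt-Tn read 1569, 1464, 1319, 1555, 1505, 1346, 1063, 1019, 840, 963, 1134, 755 and 816. The 6 hearts with least Nppa were all above the other 7. A tRNA is shorter than a sequenced fragment, so an FPKM for it is uncertain. All 37 tested genes of the mitochondrial genome had a negative rho, and 6 of them fell. The 13 that encode proteins gave 0 calls, with a median slope of −0.14. That median was −0.23 without female replicate 7 and −0.07 with the first digit of the library number as a term. Genes of the mitochondrial genome make up the mitochondrial share of counts that also fell with Nppa. With library size alone as the scale, the median slope over all genes moved from 0.00 to 0.06, and the calls from 152 rising and 74 falling to 174 and 14. On that scale the medians were 1.17 for myofibroblast markers, 0.41 for matrix genes and −0.08 for the 13 mitochondrial genes.

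Scn4b, the β4 subunit of the cardiac sodium channel, was the 1 called gene of 24 for calcium cycling and ion channels. In the order of Nppa it read 7.64, 9.10, 6.62, 9.16, 7.03, 6.35, 4.21, 6.16, 6.23, 6.43, 5.73, 5.37 and 2.06 scaled FPKM. The fall was by 0.60 per doubling (SE 0.13, adjusted p = 0.0306), and 0.38 ± 0.11 without female replicate 7. In 4 hearts it lay below the lowest WT saline library of 6.02. In that list 10 genes, Scn4b among them, had a negative rho at an unadjusted p under 0.05 and 1 a positive one, with a median slope of −0.12. Over all genes tested those shares were 6.85% and 7.54%. Atp2a2, the SERCA2 calcium pump, read 1640, 1594, 1542, 1515, 1620, 1499, 1216, 1264, 1241, 1529, 1507, 1292 and 1175. Its slope was −0.20 ± 0.05 (adjusted p = 0.0617) and rho −0.72 (exact permutation p = 0.0073), so it did not pass. The 13 hearts fell into 8 at 1499 to 1640 and 5 at 1175 to 1292, and 12 of them lay inside the WT saline range. Kcnv2, a modifier of potassium channels, had a slope of −0.57 ± 0.17 (adjusted p = 0.101), with 9 of 13 hearts below WT saline, and one of −0.71 ± 0.13 with the first digit of the library number as a term (adjusted p = 0.0331).

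Most genes of fatty acid use had a negative rho, and none was called. Of 33 tested genes of fatty acid uptake and oxidation, the main fuel route of the heart, 0 were called. In that list 32 had a negative rho, against 5299 of all 10752 genes tested. An unadjusted p under 0.05 was found for 9 of them, against 6.85% of all genes, and the median slope was −0.17. Acot1 (slope −0.65 ± 0.16, adjusted p = 0.0549) and Hadha (−0.20 ± 0.07, adjusted p = 0.152) are examples. Ech1, an enzyme of the same route, had a slope of −0.22 ± 0.10 (adjusted p = 0.233), although 10 of the 13 hearts lay below the lowest WT saline library (358). Tricarboxylic acid cycle genes gave 0 calls among 18 (median −0.05) and branched-chain amino acid degradation genes 0 among 19 (median −0.07). Glucose genes gave 1 rise among 25, Eno1 (slope 0.29, adjusted p = 0.0293), named after its values were seen, with a median of 0.06; Pfkp and Pgk1 had slopes of 0.40 and 0.17 (adjusted p = 0.0654 and 0.0532). Nuclear genes of the respiratory chain gave 1 rise among 82, Cox8a (slope 0.22, adjusted p = 0.0341), and a median near 0, at 0.03. With the first digit of the library number as a term it was 0.0018. Their median rho was −0.39 in females and 0.49 in males, and that of the mitochondrially encoded genes −0.57 and −0.66. Neither the difference between the sexes nor that between the lists was tested.

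Genes of the ribosome leaned up. Of 87 cytosolic ribosomal protein genes 82 had a positive rho, against 50.1% of all genes tested. An unadjusted p under 0.05 was found for 25 of them, against 7.54% of all genes. The median rho was 0.25 in females and 0.77 in males, a difference that was not tested. In the slope test 2 rose, Rpl3 (slope 0.29 ± 0.04, adjusted p = 0.006) and Rpl30 (0.29 ± 0.07, adjusted p = 0.0466). The median slope was 0.11, with 0.18 without female replicate 7 and 0.08 with the first digit of the library number as a term. These genes are short and many have near-identical pseudogenes, so their counts are uncertain. Mitochondrial ribosomal proteins gave 0 calls among 78, with 63 positive rho (50.1% over all genes tested) and a median slope of 0.05. Without female replicate 7 the medians were 0.10 for these, 0.11 for nuclear genes of the respiratory chain, 0.02 for glucose genes and −0.04 for mural markers.

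Several programmes that long-term stress can raise gave no call. These were gp130 cytokine signalling (8 genes, median −0.01), endoplasmic reticulum stress (18, −0.07), small heat shock proteins and Bag3 (13, −0.01), NRF2 targets (14, 0.04), calcineurin and NFAT genes (12, −0.01) and muscle ubiquitin ligases (8, −0.06). The renin-angiotensin and endothelin list (9, −0.03), cardiac transcription factors (11, 0.01), immediate early genes (13, −0.11), metallothioneins (5, −0.06) and the integrated stress list (5, 0.15) gave 0 calls as well. Clock genes (16) had the lowest median of all lists, −0.18, and 0 calls. Without female replicate 7 the medians were 0.18 for immediate early genes, the opposite sign, −0.38 for clock genes, −0.09 for metallothioneins and −0.08 for calcineurin and NFAT genes. Those of small heat shock proteins (0.02) and cardiac transcription factors (−0.05) also changed sign without it. Larp6, the gene that the transgene carries, had a slope of −0.09 ± 0.17 (adjusted p = 0.818) and rho −0.23 (exact permutation p = 0.459) across the WT hearts, and the 7 La-related genes gave 0 calls. The plot of list members shows the medians in order.

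**Figure D5:**
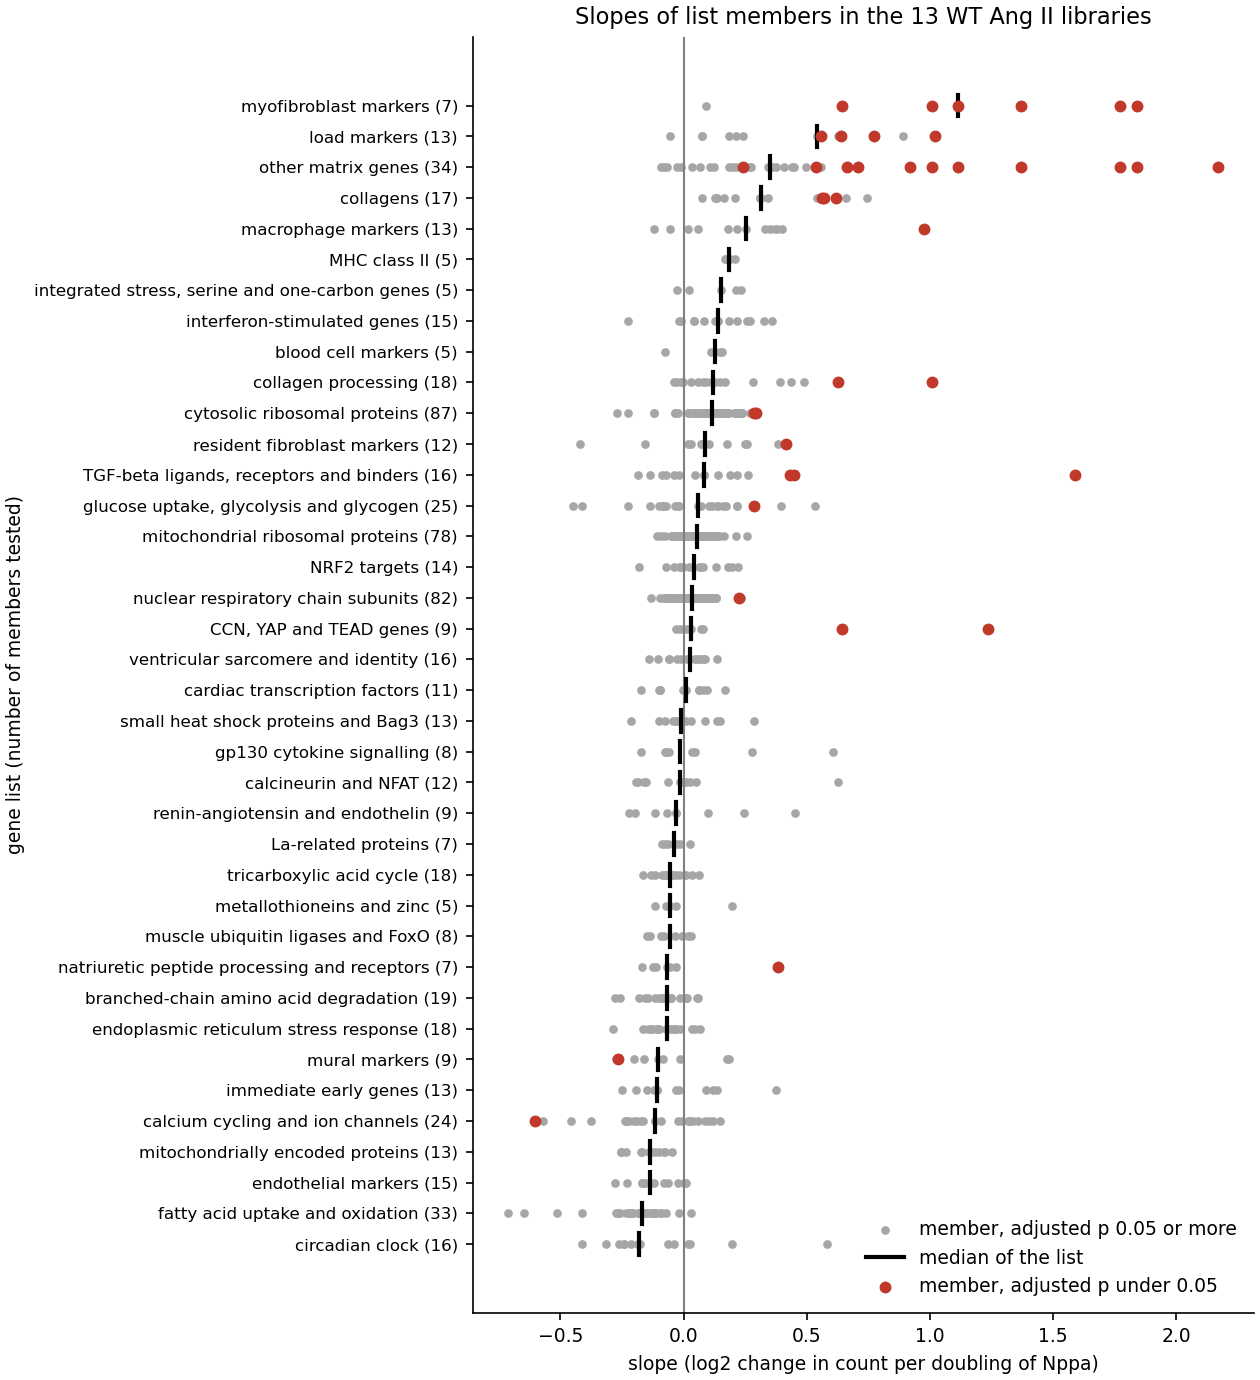
Slope (log2 change in count per doubling of Nppa) of each tested member of the gene lists with at least 5 tested members in the 13 WT Ang II libraries, with members at an adjusted p under 0.05 in red, others in grey and a bar at the median; the number tested is in brackets. Myofibroblast markers have the highest median (1.11) and clock genes the lowest (−0.18).

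The Tg Ang II hearts share no library with the 13, and the 226 calls were made without them; the genes named below for a difference in slope were chosen with them. No slope on Nppa passed within them (0 of 10752), and 0 slopes differed from WT Ang II at an adjusted p under 0.05 (smallest 0.999), with 415 at an unadjusted p under 0.05. Still, of the 152 genes that rose in WT, 140 (92.1%) also had a positive slope in Tg Ang II, against 50.9% of all genes. Of the 74 that fell, 72 (97.3%) had a negative slope, against 49.2%. At an unadjusted p under 0.05 and the same sign there were 54 of the 152 (35.5%, against 4.41% of all genes) and 28 of the 74 (37.8%, against 4.07%). The slopes were smaller there, with medians of 0.19 and −0.13 against 0.40 and −0.27 in WT. Of the differences, 56 of the 152 and 14 of the 74 had an unadjusted p under 0.05. The WT slopes were selected for passing a test and those in Tg were not, so their sizes are not on an equal footing.

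Ankrd1 had a slope of 0.64 ± 0.11 in WT and 0.60 ± 0.13 in Tg (unadjusted p = 1.2e-04 in Tg). By the same edgeR fit Myh7 had a Tg slope of 0.53 (unadjusted p = 0.0053). That of Nppb was 0.75 (unadjusted p = 0.0097) and that of Ccn2 was 0.45 (unadjusted p = 0.0091). Over all genes tested, the smallest p of a difference was that of Comp, at 1.84 in WT and 0.63 ± 0.22 in Tg (difference 1.21 ± 0.28, unadjusted p = 2.9e-04, adjusted 0.999). Among the genes with a mean of at least 5, the smallest p belonged to Thbs4, whose slope was 1.77 in WT and 0.49 ± 0.26 in Tg (difference 1.28 ± 0.34, unadjusted p = 8.9e-04, adjusted 0.999). Tg levels of Thbs4, 2.80 to 17.5, cover the same range as the upper 8 WT hearts. Igfbp6, a binder of insulin-like growth factor, had slopes of 0.59 and 0.07 (difference 0.52 ± 0.15, unadjusted p = 0.0018, adjusted 0.999), and the other 3 named by the rule were Sptssa, Ntan1 and Pde6d, with adjusted p of 0.999 each. C3 had a larger slope in Tg (0.48) than in WT (0.29), a difference of −0.18 with an unadjusted p of 0.193. At an unadjusted p under 0.05 in Tg, 8 of the 13 load markers had a positive slope, against 4.41% of all genes. So did 2 of the 7 myofibroblast markers, 2 of the 34 other matrix genes and 0 of the 17 collagens. The counts for other matrix genes and collagens are near or below the share over all genes. A negative slope at that level was found for 6 of the 24 ion channel and calcium genes and 10 of the 33 fatty acid genes, against 4.07% of all genes. The median Tg slopes were 0.33 for load markers, 0.42 for myofibroblast markers, 0.17 for other matrix genes and 0.22 for collagens.

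In WT saline hearts, Nppa spans only 89.7 to 201. No slope passed there, and 0 differed from WT Ang II at an adjusted p under 0.05 (smallest 0.24), with 1103 at an unadjusted p under 0.05. Of the 152 rising genes 115 (75.7%) had a positive slope in saline, against 50.9% of all genes. Of the 74 falling genes 49 (66.2%) had a negative one, against 49.1%. Thbs4 had a slope of 0.34 ± 0.31 in saline (difference 1.43 ± 0.36, unadjusted p = 6.5e-04, adjusted 0.324). Ap1b1, Usp25, Meox2 and Ip6k1, the other 4 genes of at least 5 scaled FPKM with the smallest p of a difference, had the same adjusted p of 0.324. Ankrd1 had 0.59 in saline as well.

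Ordering the hearts by Nppb instead gave 182 called genes, 91 in each direction, of which 31 are among the 226. All 226 kept the sign of their slope on Nppb. Nppb and Nppa are correlated in these same libraries and the 226 were picked there, so the kept signs are no separate evidence. The share of all genes that kept their sign was not computed. Of the matrix genes with the largest slopes on Nppa, none of these 4 was called on Nppb: Thbs4 had 0.80 per doubling of Nppb (adjusted p = 0.201), Comp 0.97 (0.111), Fmod 0.80 (0.319) and Postn 0.63 (0.135). Ccn2 (0.54, adjusted p = 0.0174), Ankrd1 (0.48, adjusted p = 0.037) and Uchl1 (0.56, adjusted p = 0.0352) were called on both. Tnfrsf12a, the Fn14 receptor, had the smallest p on Nppb (slope 0.62 ± 0.05, adjusted p = 8.9e-05) and did not pass on Nppa (0.48, adjusted p = 0.21); it was singled out after its values were seen.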

How the data were processed

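Left-ventricular RNA was sequenced from single mice, and the authors deposited one table with a count and an FPKM value per gene and library. Per the submitters' processing notes, cutadapt 1.9, FastQC, HISAT2 2.0.4 and StringTie 1.3.4d were used; the build, the counting tool and the use of strand are not given in the sources used here. The deposited FPKM values were divided by a median-of-ratios factor (0.869 to 1.08 in the 13 libraries), giving scaled FPKM. The test took genes that reached 1 FPKM in 5 or more of the 13 libraries (10752 of 35717). They hold 98.7% to 99.1% of the counts.

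Spearman correlations with the Nppa rank used ranks from SciPy 1.17.1 and exact p-values computed directly from the distribution over all orders of the libraries. Pearson correlations of log2(scaled FPKM + 1) used 100000 permutations. Slopes on log2 Nppa, with sex as a covariate, were fitted to the deposited counts with edgeR 4.0.16 (quasi-likelihood test), and with DESeq2 1.42.0 and limma 3.58.1 as alternatives. Differences in slope from Tg Ang II and from WT saline were interaction terms. P-values were adjusted by Benjamini-Hochberg over all genes tested, and a call is an adjusted p under 0.05. The scripts were tested on simulated data. The median tested gene had a mean count of 1333, a counting error of 2.74%.

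Genes named are Nppa and a panel of 11, the 10 highest and 10 lowest rho among genes with a mean of at least 5 scaled FPKM, up to 4 members of each list with the largest absolute rho, and the 5 smallest p-values of each slope difference at that mean; others are marked as named after their values were seen. The libraries, genes and lists were chosen with earlier results of these data known. Groups come from the sample labels. No 2 of the 13 libraries agreed within sampling noise (lowest chi-square per gene 26.6).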

Additional observations from a re-analysis of the deposited data

Results flagged for a closer look

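A sample far from the rest of its group was looked for in 24 groups of 6 or 7 libraries (Nppa and the panel, by sex), where chance flags about 1 in 20. Among WT Ang II females, replicate 7 stood apart as the highest in 5 of the genes. For Nppa, which set the order, this is a description only: it was 1143 scaled FPKM there and 555 in the next female. Myh7 was 552 against 218, and Ankrd1 1046 against 585. Ccn2 was 51.3 against 32.1, and Postn 36.9 against 15.2. Among WT Ang II males, replicate 1 was the highest in Acta1, at 954 against 375, and the lowest in Ech1, at 236 against 332. In the library labelled WT Ang II male replicate 5, which is not among the 13, Larp6 was 1000 scaled FPKM, against at most 63.4 in WT saline. In that library Nppa was 1466, Nppb 484, Myh7 929, Postn 15.2 and Thbs4 4.19.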

How the results depend on the processing

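The Spearman test, with 0 calls among the 13 libraries, gave 1 with FPKM not scaled further, 32 by Pearson correlation on log2 values, 15 with male replicate 5 included, 30 with Nppb as the ranking gene, and 0 to 3 with 1 library left out. The 226 slope calls became 105 with no filter on low values, 130 with the first digit of the library number as a term, 28 on the rank of Nppa, 842 with male replicate 5 included, 657 by DESeq2, and 5 to 391 with 1 library left out. TMM scaling (229), library size alone (188), no sex term (157), Nppb (182) and limma-trend (181) stayed within 1.5 times. Differences in slope gave 0 calls under every alternative run. Over 54 genes, 946 slope values kept direction and side of the threshold, 278 kept direction and lost the call, 14 gained it and 3 reversed. The reversals were the slope of Acta1 with that first digit (−0.032) and without male replicate 1 (−0.0003909), and the slope of Larp6 with male replicate 5 included (1.14, adjusted p = 0.034). For rho, 11 values reversed. With FPKM not scaled further Hspa9 had 0.11. In males alone Acta1 had −0.14 and Larp6 0.0857. Within that first digit Acta1 had −0.31, Postn −0.125, Ech1 0.125, Larp6 0.19 and Hspa9 0. With 1 library left out Acta1 had a slope of −0.0003909 to 0.452 and a rho of −0.049 (without female replicate 6) to 0.231, with 0 without male replicate 1, and the rho of Larp6 was 0.01978 with male replicate 5 included. The cause was not tested. No paired analysis was possible because every library carries its own number and all 13 belong to 1 group.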
